A study of Homo sapiens with 4 samples.

Results

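The immunoglobulin-family cell adhesion molecules described here are 10 genes, taken by name from the 19314 genes listed for U87 cells: ICAM1, ICAM2, ICAM3, ICAM5, VCAM1, NCAM1, NCAM2, L1CAM, ALCAM and MCAM. All 10 had a value above 0 in at least 1 library and were among the 16595 genes tested. U87 is a human malignant glioma line, and RNA was sequenced from 4 libraries: 2 labelled PTPRN knockdown (shPTPRN), which carry a short hairpin RNA against PTPRN, and 2 labelled SCR (shScr), which carry a scrambled hairpin. The study's methods describe hairpins against PTPRN in the pLKO.1 vector, and untreated cells were not analysed here. The labels do not say whether the 2 libraries of a group came from separate cultures or whether the cells were a pool or a clone, so the p-values measure only the spread between these libraries, which may be technical.

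These proteins sit in the plasma membrane and carry immunoglobulin domains outside the cell, by which they bind a partner on another cell or in the matrix. The ICAMs and VCAM1 are ligands of integrins, and some of them, on blood vessels, hold leukocytes that are about to leave the blood. NCAM1, NCAM2 and L1CAM bind like molecules on neighbouring cells and are known from the growth and bundling of nerve fibres, and L1CAM is also studied for its part in the migration of glioma cells. ALCAM (CD166) binds itself and the lymphocyte receptor CD6, and MCAM (CD146) is found on vessels and on melanoma cells. Inflammatory cytokines are known to raise ICAM1 and VCAM1 in many cell types through nuclear factor kappa B.

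Levels are given as FPKM, the fragments assigned to a gene per kilobase of transcript and scaled to the library's mapped total, as the authors deposited them. Being scaled by length, these levels can be set side by side between genes. Read totals were not used here. The spacing of low values in short genes with 1 transcript, which step by whole reads, gave an estimate of 18300000 and 18400000 reads for the shPTPRN libraries and 19900000 and 18300000 for the shScr libraries. Between 11080 and 11252 genes reached an FPKM of 1 per library. PTPRN itself (Gene ID 5798) had an FPKM of 12.09 and 11.68 with shPTPRN and of 84.84 and 85.02 with shScr, 7.15-fold lower. Differences were tested with limma on log2(FPKM + 1), a scale that makes the change of weakly expressed genes smaller, and adjusted over all 16595 genes. Differential genes were those with a minimum 2-fold difference whose adjusted p did not exceed 0.001. A second count took every gene whose adjusted p did not exceed 0.05, whatever its fold. With 2 libraries against 2, an exact permutation test of 1 gene cannot give a two-sided p below 0.333.

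Of the markers fixed for U87 cells, VIM, CD44, FN1, TNC, CHI3L1 and NES all reached an FPKM of 1, and CDKN2A, which is deleted in this line, lay at 0.05 or less in every library. These markers were not stable: of 7 tested, VIM and CD44 were called higher with shPTPRN and NES, FN1, CHI3L1 and TNC lower, and the part of such a shift in the values below was not tested. The recorded growth protocol names another line, the brain endothelial cell hCMEC/D3. The 10 endothelial markers summed to 4.11 and 4.73 with shPTPRN and to 4.74 and 4.82 with shScr. PECAM1 and TEK were the endothelial markers that reached 1, and CDH5 and CLDN5 were at 0.03 or less. Of these 10, TEK, KDR and ERG were higher and PECAM1 and VWF lower at an adjusted p of 0.05, with VWF at 0.06 and 0.05 against 0.98 and 0.93 and ERG at 0.68 and 0.94 against 0.07 and 0.07. The leukocyte markers had a value for 5 of 10 genes and summed to 5.98 and 5.11 with shPTPRN and to 6.72 and 6.99 with shScr.

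The groups also differed over a whole chromosome. Of 17 genes tested on chromosome Y outside the regions it shares with X, 7 had a mean FPKM of at least 1 with shScr, between 1.04 and 9.4 in single libraries. All 7 were at 0.09 or less in both shPTPRN libraries, and none of the 17 had a mean of 1 there. The shPTPRN and shScr cells were thus not alike in this respect. For every difference given here, those of PTPRN and the markers above included, the knockdown and this difference between the cells cannot be told apart.

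The targets of the study's hairpins against PTPRN were set against the 10 genes first, because the libraries are titled PTP2 and the labels do not say which hairpin that is. The 21-base targets, with the bases that pair with the seed of the guide strand in capitals, are these.
shPTPRN-1: aaggtgtgctccgACAACTCa
shPTPRN-2: aactgcctccaagGGCATATt
Each matched PTPRN with 0 mismatches in the protein-coding transcripts of GENCODE 29 (GRCh38). The best match in any of the 10 adhesion genes had 7 mismatches for either target. The 7-base seed site of shPTPRN-2 was in no protein-coding transcript of the 10 genes, against 12.5% of 19669 protein-coding genes, and that of shPTPRN-1 was in none either, against 16.8%.

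ALCAM was the member that changed most. Its transcript fell 4.87-fold with shPTPRN, and it went from the most abundant of the 10 genes to the second. MCAM, ICAM3, ICAM1 and ICAM5 rose by small amounts, and L1CAM fell from a low level. NCAM1, NCAM2, ICAM2 and VCAM1 did not pass the test. In counts, 1 of the 10 genes was called differential, and it was lower, where 6.69% of all genes tested were called and 4.06% were called lower. At an adjusted p of at most 0.05, 6 of the 10 passed, 4 higher and 2 lower, against 57.9% of all genes, and 3 passed without either shPTPRN library. The groups did not overlap for 8 of the 10, 5 higher and 3 lower, against 75.6% of all genes. The median log2 fold change was 0.06 over the 10 genes and 0.01 over all genes tested. As a set the 10 genes were thus near the background of this comparison in all of these counts, and what follows is a description gene by gene.

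**Figure D1:**
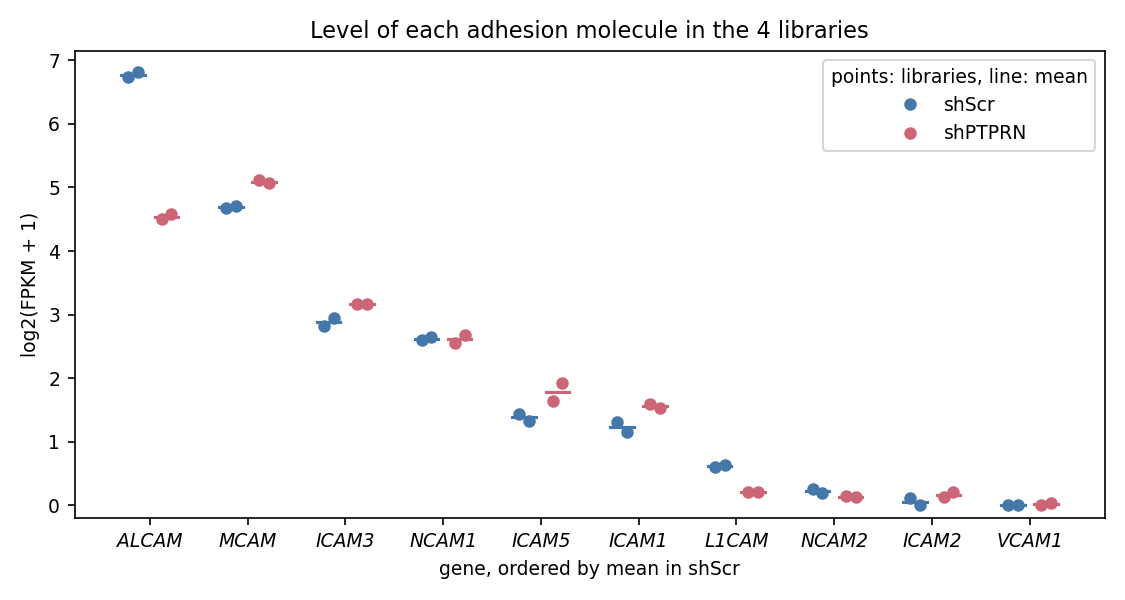
Level of the 10 genes as log2(FPKM + 1), each point 1 library and each line the mean of 2, in shScr and shPTPRN. ALCAM was far lower in both shPTPRN libraries, MCAM was somewhat higher, and NCAM2, ICAM2 and VCAM1 lay near 0 in all 4 libraries.

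ALCAM (Gene ID 214) lies on the plus strand of chromosome 3, from 105366713 to 105576913 in the positions of the deposited table (GRCh38, as for all genes below), with 4 transcripts. Its FPKM was 21.57 and 22.99 in the shPTPRN libraries and 105.90 and 111.34 in the shScr libraries. Both shPTPRN libraries were far below both controls, and the means were 22.3 ± 1.00 (SD, n = 2) and 109 ± 3.85 (SD, n = 2). Its log2 fold change was -2.24 (standard error 0.05, 95% interval -2.38 to -2.09, limma adjusted p = 2.43e-04). In the control cells ALCAM stood above 96.4% of the genes tested. About 1923 and 2054 reads stood behind the shPTPRN values and about 10254 and 9904 behind the shScr values, so counting error was small beside the difference. The direction and an adjusted p under 0.05 held under all 12 alternatives, but the differential call was lost with a pseudocount of 0.1 (adjusted p = 0.00165), with the replicate block (0.00396) and with any library left out (0.0226 to 0.0229). No other gene of GENCODE 29 overlaps ALCAM. In RNA from whole cultures, less transcript per cell and fewer cells that express a gene cannot be told apart.

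MCAM (Gene ID 4162) lies on the minus strand of chromosome 11, from 119308524 to 119317130. It had an FPKM of 33.65 and 32.58 with shPTPRN and of 24.64 and 25.05 with shScr. The groups did not overlap, and MCAM rose 1.33-fold (log2 fold change 0.40, standard error 0.034, 95% interval 0.30 to 0.50, adjusted p = 0.00185), well short of a fold of 2. About 1505 to 2026 reads per library stood behind these values. The gene shares 5398 bases with CBL, a ubiquitin ligase gene transcribed in the other direction, and whether reads were counted by strand is not given in the sources used here. CBL also rose, from 4.92 and 5.01 to 8.84 and 8.92 (log2 fold change 0.73, adjusted p = 4.70e-04), and its part in the value of MCAM was not tested.

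The order of ALCAM and MCAM was reversed between the groups. MCAM was 1.56 and 1.42 times ALCAM in the shPTPRN libraries, while ALCAM was 4.30 and 4.44 times MCAM in the shScr libraries. Over the 10 genes the summed FPKM was 72.5 and 74.1 with shPTPRN and 145.6 and 151.7 with shScr. ALCAM held 29.7% and 31.0% of that sum with shPTPRN and 72.7% and 73.4% with shScr. The share of MCAM was 46.4% and 44% against 16.9% and 16.5%. The other 8 genes together held 23.9% and 25.0% with shPTPRN and 10.4% and 10.1% with shScr.

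**Figure D2:**
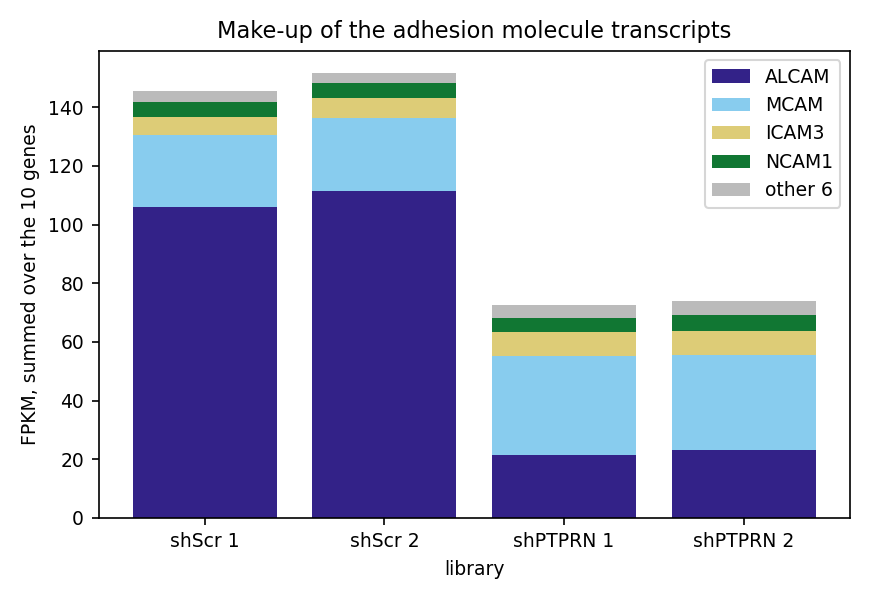
FPKM of the 10 genes stacked for each library, with the 6 least abundant genes joined in grey. The sum was 145.6 and 151.7 with shScr and 72.5 and 74.1 with shPTPRN, and ALCAM made up most of the first pair but not of the second.

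Among the ligands of leukocyte integrins, ICAM3, ICAM5 and ICAM1 were expressed at a low level and were each slightly higher with shPTPRN. ICAM3, known best from resting leukocytes, was the most abundant of them. Its FPKM was 8.02 and 8.0 with shPTPRN and 6.06 and 6.70 with shScr, a rise of 1.25-fold (log2 fold change 0.29, standard error 0.054, adjusted p = 0.0153). The shPTPRN libraries were almost equal, and both lay above the controls. With either shPTPRN library left out, the adjusted p was 0.138 and 0.136.

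ICAM5, known as telencephalin of forebrain neurons, had an FPKM of 2.11 and 2.77 with shPTPRN and of 1.71 and 1.5 with shScr. It was 1.52-fold higher with shPTPRN and passed the test narrowly (log2 fold change 0.40, standard error 0.114, 95% interval 0.07 to 0.72, adjusted p = 0.0496). The shPTPRN values rested on about 114 and 150 reads and the shScr values on about 101 and 81. ICAM5 lost the call with a replicate block (adjusted p = 0.0982), with a pseudocount of 0.1 (0.0696), with median-ratio scaling (0.0551) and with each library left out in turn (0.06 to 0.302).

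ICAM1, the ligand of the integrins LFA-1 and Mac-1 that many cells make under inflammation, had an FPKM of 2.00 and 1.89 with shPTPRN and of 1.48 and 1.21 with shScr. It rose 1.45-fold (log2 fold change 0.33, standard error 0.07, 95% interval 0.13 to 0.53, adjusted p = 0.0218). About 117 and 111 reads stood behind the shPTPRN values and about 94 and 71 behind the shScr values. The call was lost without the first shPTPRN library (adjusted p = 0.181), the second one (0.148) or the second shScr library (0.0695).

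ICAM1, ICAM4 and ICAM5 lie one after the other on the plus strand of chromosome 19, and ICAM3 follows on the minus strand. ICAM1 runs from 10270841 to 10286615, ICAM5 from 10289979 to 10296778 and ICAM3 from 10333776 to 10339834. A gap of 351 bases separates ICAM1 from ICAM4, 1394 bases separate ICAM4 from ICAM5, and 36997 bases separate ICAM5 from ICAM3. ICAM4, a red cell adhesion molecule that is not among the 10 genes, had an FPKM of 1.01 and 0.89 with shPTPRN and of 0.58 and 0.61 with shScr (log2 fold change 0.29, adjusted p = 0.00883). These 4 ICAM genes were thus higher in both shPTPRN libraries than in both controls, and all passed 0.05. Any other genes between ICAM5 and ICAM3 were not looked at. Counted in either direction, 75.6% of all genes did not overlap and 57.9% passed, and 5107 of 16595 passed higher. Antisense genes overlap ICAM1 by 14274 and 815 bases and ICAM3 by 2473 bases, and here too counting by strand is not given.

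ICAM2, on chromosome 17 from 64002595 to 64020634, and VCAM1, on chromosome 1 from 100719640 to 100739045, were at or near 0. ICAM2, which endothelial cells and platelets carry without stimulation, had an FPKM of 0.09 and 0.15 with shPTPRN and of 0.08 and 0 with shScr, about 4 reads or fewer per library. VCAM1, the endothelial ligand of the integrin of ITGA4 and ITGB1, was listed at 0 and 0.02 with shPTPRN and at 0 in both shScr libraries, about 1 read in all. A count of 0 allows up to 3 reads, which for VCAM1 is an FPKM of 0.0477 to 0.052 in these libraries, counting error only. For the shorter ICAM2, 3 reads are an FPKM of 0.117 to 0.127. A difference below these limits was not detectable at this depth in either gene.

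**Figure D3:**
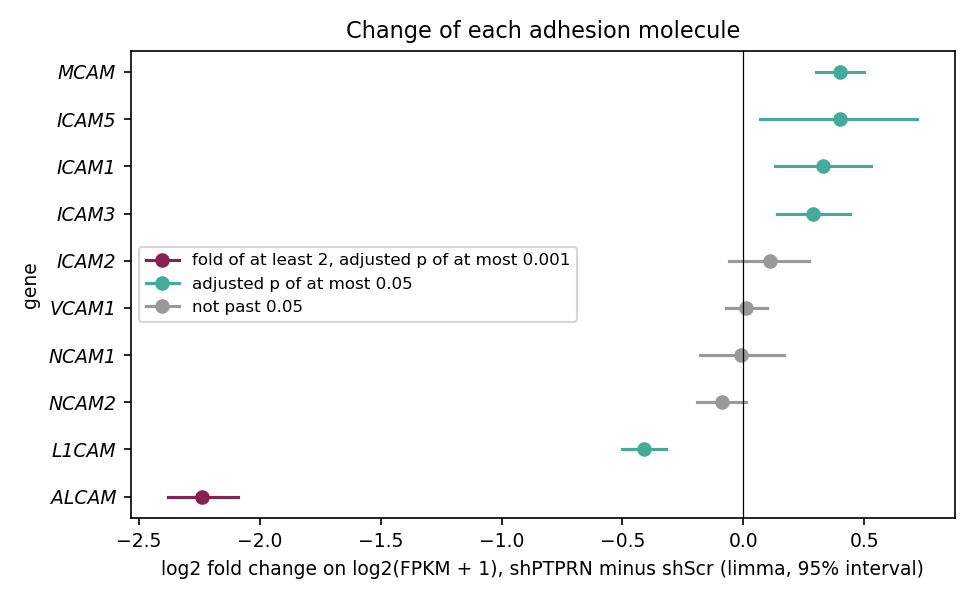
Change of the 10 genes on the log2(FPKM + 1) scale, shPTPRN minus shScr, with 95% intervals from limma. ALCAM stood apart at -2.24, L1CAM was at -0.41, the 4 genes that rose lay between 0.29 and 0.40, and the intervals of ICAM2, VCAM1, NCAM1 and NCAM2 included 0.

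Among the neural adhesion molecules, L1CAM fell, and NCAM1 kept an interval around 0. L1CAM (chromosome X, from 153861514 to 153886174, minus strand) had an FPKM of 0.15 in both shPTPRN libraries and of 0.51 and 0.55 in the shScr libraries. That was 3.53-fold lower on the FPKM scale, from about 52 and 51 reads to about 14 in each library. On the log2(FPKM + 1) scale the difference was -0.41 (standard error 0.031, 95% interval -0.50 to -0.32, adjusted p = 0.00147), and with a pseudocount of 0.1 it was -1.33. L1CAM shares 13954 bases with another protein-coding gene model on its own strand and 5503 bases with a transcript on the other, so its value is uncertain to that extent.

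NCAM1, the main neural cell adhesion molecule and the carrier of polysialic acid, had an FPKM of 4.84 and 5.43 with shPTPRN and of 5.07 and 5.24 with shScr. The shPTPRN libraries lay on either side of the controls. Its log2 fold change was -0.01 (95% interval -0.18 to 0.17, adjusted p = 0.943), so a change beyond that interval on this scale was not seen with about 534 to 608 reads per library. NCAM1 lies on chromosome 11 from 112961247 to 113278436. NCAM2 (chromosome 21, from 20998315 to 21540196), its olfactory relative, had an FPKM of 0.10 and 0.09 with shPTPRN and of 0.19 and 0.14 with shScr, or about 8 to 19 reads. Its groups did not overlap, and it did not pass the test (log2 fold change -0.09, adjusted p = 0.115).

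The neuronal markers fixed beside these genes were lower with shPTPRN for 4 of the 5 with a value, and the list summed to 7.47 and 7.76 against 19.21 and 17.26. Among these markers SNAP25, a synaptic fusion protein, had an FPKM of 3.63 and 3.98 with shPTPRN and of 10.62 and 9.79 with shScr (log2 fold change -1.22, adjusted p = 6.59e-04). RBFOX3, which marks mature neurons, was at 0.04 or less in every library. The part of these differences in the value of L1CAM was not tested.

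In order of mean level, the shScr cells had ALCAM, MCAM, ICAM3, NCAM1, ICAM5, ICAM1, L1CAM, NCAM2, ICAM2 and VCAM1. Each pair of neighbours was apart in both libraries down to ICAM2, although ICAM5 (lowest 1.5) and ICAM1 (highest 1.48) all but met, and ICAM2 and VCAM1 both reached 0. With shPTPRN the order was the same except that MCAM was above ALCAM and ICAM2 above NCAM2, and there the libraries of ICAM2 overlapped those of L1CAM and of NCAM2, while L1CAM was above NCAM2 in both.

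Sequences upstream of the start sites are shown for the member called differential, the one with the highest level after knockdown, and the cytokine-inducible pair. They come from RefSeq (GRCh38.p14), which had an entry for 8 of the 10 genes, and are the 250 bases before the start site, read 5′ to 3′ on the strand of the gene. Capitals in ICAM1 and VCAM1 mark GGNNNTTCC, a loose form of the kappa B site, the full kappa B consensus (in VCAM1, where it overlaps the loose form) and TATAAA on either strand. In MCAM they mark the cyclic AMP response element TGACGTCA, and in ALCAM the GC box GGGCGG. Both strands were searched, for motifs chosen after these sequences were seen, and GC boxes in MCAM and ICAM1 are left in lower case.
ALCAM, chr3:105366659-105366908, plus strand: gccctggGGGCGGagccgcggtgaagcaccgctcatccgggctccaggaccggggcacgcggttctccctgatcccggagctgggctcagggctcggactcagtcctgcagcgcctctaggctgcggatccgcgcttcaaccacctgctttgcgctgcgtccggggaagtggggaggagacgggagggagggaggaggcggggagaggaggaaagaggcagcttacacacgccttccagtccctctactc
MCAM, chr11:119317131-119317380, minus strand: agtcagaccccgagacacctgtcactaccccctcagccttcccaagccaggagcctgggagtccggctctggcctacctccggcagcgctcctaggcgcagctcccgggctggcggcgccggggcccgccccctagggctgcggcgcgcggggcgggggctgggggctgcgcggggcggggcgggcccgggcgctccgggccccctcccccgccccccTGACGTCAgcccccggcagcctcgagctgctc
ICAM1, chr19:10270870-10271119, plus strand: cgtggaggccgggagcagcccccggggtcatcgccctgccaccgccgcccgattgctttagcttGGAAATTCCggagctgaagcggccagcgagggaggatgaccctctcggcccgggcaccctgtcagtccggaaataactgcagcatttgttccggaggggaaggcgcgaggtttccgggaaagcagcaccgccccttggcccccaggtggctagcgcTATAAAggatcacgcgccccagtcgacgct
VCAM1, chr1:100719492-100719741, plus strand: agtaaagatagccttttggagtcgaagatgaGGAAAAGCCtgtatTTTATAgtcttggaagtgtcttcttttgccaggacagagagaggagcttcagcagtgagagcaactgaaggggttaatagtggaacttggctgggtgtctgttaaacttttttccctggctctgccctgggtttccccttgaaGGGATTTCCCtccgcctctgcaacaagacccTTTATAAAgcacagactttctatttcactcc

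These letters differed among the 4 genes. In windows of 250 bases before to 50 after the start, the loose kappa B form was in 20.1% of 27305 RefSeq promoters, the consensus in 5.72%, TATAAA in 12.0%, TGACGTCA in 1.98% and GGGCGG in 44.6%. ICAM1 had the loose form at -186 and TATAAA at -30 from the start site, and 2 GC boxes. VCAM1 had the loose form at -219 and -62, the consensus at -62 and TATAAA on its own strand at -29. MCAM had TGACGTCA at -32, 5 GC boxes, and the consensus at position 32 after the start, and ALCAM had a single GC box at -243. Of the other genes with an entry, ICAM5 and L1CAM held GC boxes, and ICAM3 and NCAM2 held none of these motifs. A single start site per gene was used, and some lie inside the gene as placed above. The start site was at 21147162 for NCAM2, 153875944 for L1CAM and 10271120 for ICAM1. Other start sites of these genes were not searched. These matches describe letters only.

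Genes known to induce ICAM1 and VCAM1, or to carry the signal to them, moved in both directions. Of 20 such genes tested, 10 were higher and 6 lower at 0.05, or 80% against 57.9% of all genes, with a median log2 fold change of 0.11. Among expressed genes the share passing was higher than 57.9%, as given above. The 3 called differential, or 15% against 6.69% of all genes, were all higher, where 437 of 16595 genes were called higher. They were the cytokine IL1B, its relative IL1A and the nuclear factor kappa B subunit gene NFKB2. IL1B had an FPKM of 2817 and 2782 with shPTPRN and of 43.5 and 42.8 with shScr. IL1A had 17.2 and 16.9 against 1.89 and 1.87, and NFKB2 had 40.4 and 41.3 against 15.9 and 14.1. Beside these, ICAM1 changed by 0.33 on the log2 scale and VCAM1 stayed at or near 0, as given above. The interleukin-1 receptor gene IL1R1 had 16.6 and 17.6 against 26.7 and 27.3 (log2 fold change -0.63, adjusted p = 0.00108). TNF, the other classical inducer, was at 0.10 and 0.37 against 1.32 and 1.16. The inhibitor gene NFKBIA had 110 and 111 against 109 and 107 (adjusted p = 0.406), and JUN had 97.6 and 90.4 against 95.8 and 96.4 (adjusted p = 0.622). IL1R1 and TNF were named after their values were seen.

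The integrins that bind these molecules ranged from strongly expressed to near 0. Of 12 integrin genes tested, 3 were higher and 4 lower at 0.05, or 58.3% against 57.9% of all genes, with a median of 0.06. ITGA4, the α subunit that binds VCAM1, fell to 0.70 and 0.84 from 4.24 and 4.35 (log2 fold change -1.58, adjusted p = 3.64e-04). ITGA5, a fibronectin receptor subunit that also binds L1CAM, fell to 159 and 159 from 348 and 343 (-1.11, adjusted p = 2.98e-04). Its partner ITGB1 had 218 and 221 against 348 and 354 (-0.67), and ITGB3, of the vitronectin receptor, rose to 65.3 and 71.5 from 47.7 and 49.7 (0.48). ITGB2, the β subunit shared by LFA-1 and Mac-1, was at 0.10 or less in all 4 libraries.

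Ligands and co-receptors of these molecules moved in both directions. Of 15 tested, 5 were higher and 4 lower at 0.05, or 60% against 57.9% of all genes, none was called differential, and the median was 0.01. The 9 past 0.05 became 5 without either shPTPRN library. At an unadjusted p under 0.05 limma counted 9 of the 15. LGALS3, a galectin that binds MCAM, had 174 and 169 against 211 and 217 (log2 fold change -0.32, adjusted p = 0.00367). NRP1, a co-receptor of L1CAM, had 94.2 and 94.9 against 117 and 122 (-0.33, adjusted p = 0.00353). FGFR1, which NCAM1 and L1CAM can engage, rose to 74.8 and 72.6 from 51.0 and 51.2 (0.52, adjusted p = 9.47e-04). CD6, the lymphocyte receptor of ALCAM, was at 3.83 and 3.41 against 1.00 and 1.63 (1.01, adjusted p = 0.00908) and was named after its value was seen.

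Genes that tie these molecules to the cytoskeleton all passed 0.05, 6 higher and 9 lower of 15, against 57.9% of all genes, with a median of -0.18. The 57.9% takes in genes near 0, and the share passing was higher among expressed genes, going by the filtered count given with the inducers. The share called differential was 13.3%, against 6.69% of all genes. ANK1, of the ankyrins that anchor L1-type molecules to spectrin, fell to 2.45 and 2.50 from 7.74 and 7.84 (log2 fold change -1.34, adjusted p = 2.43e-04). ACTN1, an actin cross-linker that binds the tails of ICAMs, fell to 103 and 101 from 208 and 203 (-1.01, adjusted p = 3.59e-04), while ACTN4 had 227 and 229 against 249 and 244 (-0.11, adjusted p = 0.0455). The most abundant of the linkers, moesin (MSN), which joins ICAM tails to actin, rose to 318 and 326 from 283 and 289 (0.17, adjusted p = 0.0161). Syntenin (SDCBP), which binds the tail of ALCAM, rose to 284 and 277 from 170 and 170 (0.72, adjusted p = 4.98e-04).

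Of 10 enzymes tested that cut these molecules or add or remove sialic acid, 7 were lower and 1 higher at 0.05, or 80% against 57.9% of all genes. Here too the share passing among expressed genes was higher than 57.9%, going by the same filtered count. Of the 7, ELANE and ST8SIA2 were near 0 in every library, at most 0.16 and 0.27. The 3 called differential were all lower, where 4.06% of all genes were called lower, and the median of the list was -0.29. MMP2, a gelatinase, had 320 and 314 against 1067 and 1068 (log2 fold change -1.75, adjusted p = 1.72e-04). BACE1, a membrane protease, had 5.34 and 5.53 against 12.3 and 13.4 (-1.11, adjusted p = 5.80e-04), and the lysosomal sialidase NEU1 had 17.1 and 16.4 against 37.3 and 35.8 (-1.08, adjusted p = 4.39e-04). ADAM10, which sheds L1CAM among other substrates, had 26.8 and 27.4 against 39.4 and 41.7 (-0.56, adjusted p = 0.00144).

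**Figure D4:**
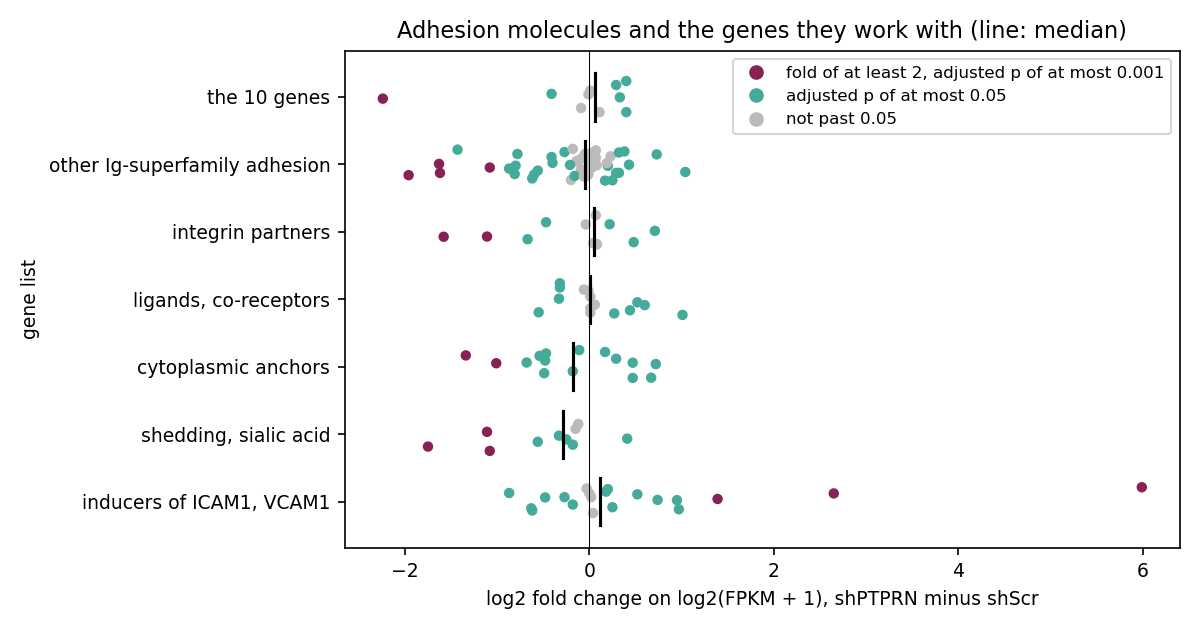
Change of each gene in 7 lists on the log2(FPKM + 1) scale, shPTPRN minus shScr, with 1 point per gene tested, coloured by its call, and a line at each median. List medians lay between -0.29 and 0.11, ALCAM is the lowest point of the top row, and IL1B is the point at the far right of the bottom row.

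The wider family was read beside the 10 genes. Of 47 other immunoglobulin-superfamily adhesion genes tested, 10 were higher and 17 lower at 0.05, or 57.4%, and 4 were called differential, or 8.51%, against 57.9% and 6.69% of all genes. The 27 past 0.05 became 14 without either shPTPRN library and 17 without the first shScr library. All 4 were lower. AMIGO2, a neuronal adhesion molecule with leucine-rich repeats, had 2.50 and 2.30 against 12.4 and 12.0 (log2 fold change -1.96). JAM2, a junctional molecule of endothelium, had 14.8 and 14.4 against 47.2 and 47.5 (-1.63). IGSF8, a partner of tetraspanins, had 10.1 and 9.74 against 34.0 and 31.1 (-1.62), and neuroplastin (NPTN) had 32.0 and 32.8 against 68.7 and 70.9 (-1.08). None of the 4 fell as far on this scale as ALCAM, and that difference was not tested. The scale makes the change of weaker genes smaller, and on the FPKM scale AMIGO2 fell at least as far as ALCAM. Mean FPKM with shPTPRN and shScr was 2.40 and 12.19 for AMIGO2, and 22.28 and 108.6 for ALCAM. The most abundant of the list, basigin (BSG), had 375 and 355 against 399 and 377 (-0.09, adjusted p = 0.230). MPZL1 had 44.4 and 44.2 against 49.6 and 49.2 (-0.16, adjusted p = 0.0146), and NECTIN2 had 43.9 and 41.4 against 49.4 and 45.1 (-0.14, adjusted p = 0.135).

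The deposited table places 8 of the 10 genes, all but ICAM5 and MCAM, in the KEGG pathway of cell adhesion molecules. Of its 147 other genes tested, 19 were higher and 56 lower at 0.05, or 51.0% against 57.9% of all genes, with a median of -0.05, and these 75 became 48 without the first shPTPRN library. Of the 147, 2 were called higher and 22 lower, or 16.3% called in all, against 6.69% of all genes, of which 4.06% were lower. The 22 include JAM2 and ITGA4, which were also counted in lists above. They also include NLGN4Y, a chromosome Y gene named after its value was seen, with 0 and 0 against 2.72 and 3.27. The 2 called higher were claudin genes, CLDN14 with 3.67 and 3.48 against 0.45 and 0.43 (log2 fold change 1.67) and CLDN12 with 24.2 and 24.8 against 11.3 and 11.1 (1.07). HLA genes made up 9 of the 22. These HLA genes included HLA-DMA, with 3.30 and 2.85 against 22.6 and 20.3 (log2 fold change -2.46), and HLA-DRB1, with 20.9 and 19.5 against 104 and 98.2 (-2.27), whose reads may also match close copies and are uncertain. The syndecan SDC3 had 0.20 and 0.36 against 4.66 and 4.66 (-2.15), and SDC2 had 6.39 and 5.69 against 28.7 and 28.1 (-2.06).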

How the data were processed

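RNA of 4 U87 libraries was sequenced on a BGISEQ-500, single-end, with a read length of 50 bases. The FPKM values are those the authors deposited, with no counts used here. The submitters' processing notes name HISAT2 2.1.0 and hg19. The deposited gene positions, however, match GENCODE 29 on GRCh38 and are given as such. Columns of fold changes and p-values from the authors' own comparisons were not used. The 4 libraries' FPKM values stood in 2 tables and were equal for all 66380 values compared. Of 19314 genes, 2719 had no value.

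Here, log2(FPKM + 1) was tested with limma 3.58.1 in R 4.3.3 (lmFit and eBayes) with no covariate for the 16595 genes above 0 in any library, with Benjamini-Hochberg adjustment over all of them. The script was tested on simulated data. Depth was estimated from the FPKM of short genes that step by whole reads, and estimated reads use the longest transcript, so they are approximate. The floors cover counting error only, whereas the 95% intervals are those of limma, from the spread between libraries. Chromosome Y genes were counted outside the pseudoautosomal regions of GRCh38, a check added after the values were seen. The same replicate number was not treated as a pairing, since deviations correlated at 0.0635 over 11272 genes and the labels tie no numbers together. Named are the 10 genes, PTPRN, up to 4 called genes of each list by absolute fold change (8 in the wider family), and the 3 most abundant of each partner list (4 in the wider family). The members and lists were chosen with earlier results of these data known. Alternatives were another pseudocount, an FPKM filter, a replicate block, quantile and median-ratio scaling, other variance priors and each library left out.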

Additional observations from a re-analysis of the deposited data

How the results depend on the processing

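The direction of change and the side of an adjusted p of 0.05 held for ALCAM and MCAM under all 12 alternatives and for L1CAM under the 11 that could test it. ALCAM ranged from -2.32 to -2.19 on the log2 scale, MCAM from 0.33 to 0.42 and L1CAM from -1.33 to -0.36. ICAM5 lost 0.05 under 8 of 12, ICAM1 under 3 and ICAM3 under 2. NCAM1, at -0.01 and not past the test, changed sign to 0.02 with quantile normalization and ranged from -0.08 to 0.06 with libraries left out (0.06 without shPTPRN replicate 1 and 0.01 without shScr replicate 2). The FPKM filter removed ICAM2, VCAM1, NCAM2 and L1CAM.

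The strict call depended on the setting more than the fold changes did. Differential genes over all genes numbered 1111, and 0 with a pseudocount of 0.1, where 10185 genes had an unadjusted p under 0.05 in limma, 0 with the replicate block (10108) and 0 to 0 with a library left out (8700 to 8790). Elsewhere they were 1134 to 1289, and 1172 with the pseudocount of 0.1 and the trend prior together, a pair chosen after seeing the data. The smallest adjusted p over all genes was 0.00122 with the pseudocount, 0.00396 with the block and 0.0226 to 0.0229 with a library left out, so no gene could reach 0.001. The differential genes among the 10 went from 1 to 0 under the same settings, block included. The 6 genes past 0.05 became 3 to 5 with a library left out, 3 without either shPTPRN library, and 5 with the replicate block. A library left out leaves 1 library in its group, assumed to vary like the other group. With 2 libraries a group, depth limits ICAM2, VCAM1 and NCAM2 most.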

Other observations

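Other adhesion and receptor genes of the fixed lists with large differences between groups were chosen after their values were seen. CD2, a lymphocyte adhesion receptor, had an FPKM of 0.04 and 0.00 with shPTPRN and of 1.44 and 2.11 with shScr. BCAM, a laminin receptor of the immunoglobulin family, had 0.05 and 0.02 against 0.70 and 0.92. CXADR, a junctional molecule that also serves as a virus receptor, had 3.67 and 3.63 against 0.87 and 1.72 (log2 fold change 1.04, limma adjusted p = 0.0167).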
